A study of Mus musculus with 12 samples.

Results

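This section describes liver gene expression in SIRT3 knockout mice against wild-type mice, both kept on a standard diet, across 19938 genes. The comparison was defined by the sample titles and not by any measured value, and it took in 6 of the 12 arrays of the series: 3 of wild-type and 3 of SIRT3 knockout liver. All mice were of the 129Sv strain, were 12 weeks old and had been fasted for 24 h before the whole liver was taken. The other 6 arrays, 3 of each genotype from mice weaned onto a Western diet with 42% fat and fasted in the same way, entered the fit through the estimate of spread and served as the reference for a second diet. The labels do not say how the knockout allele was made, whether each array came from a separate mouse, or which sex the mice were, so the p-values measure the spread between these samples, which may be partly technical. Whole liver RNA was hybridised to Affymetrix arrays and the values are on a log2 scale, where a difference of 1 is a doubling of the signal.

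SIRT3 is a deacetylase of the mitochondrial matrix that uses NAD as its cosubstrate and acts on enzymes of fatty acid oxidation, the tricarboxylic acid cycle, the urea cycle and the respiratory chain. In the fasted liver, fatty acids from adipose tissue are oxidised in mitochondria and turned into ketone bodies, while fatty acid synthesis and desaturation are low.

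Expression of 1 gene differed at a limma adjusted p under 0.05, which is 0.00502% of those tested: Scd1, a stearoyl-CoA desaturase, rose in the knockout. At an unadjusted p under 0.05, 1419 genes were higher (7.12%) and 520 lower (2.61%). The excess of higher genes lay among dimly hybridised genes. Of the 9969 genes below the median level, 10.2% were higher and 0.853% lower at that p, against 4.07% and 4.36% of the 9969 genes above it. Quantile normalization of the deposited values moved the split to 806 higher (4.04%) and 813 lower (4.08%), median centring to 524 (2.63%) and 1229 (6.16%), and cyclic loess to 719 (3.61%) and 668 (3.35%), so the balance of directions over all genes depends on the scaling. Both groups were completely separated, with no wild-type value inside the range of the knockout, for 1969 genes higher in the knockout (9.88%) and 901 lower (4.52%). For genes above the median level these shares were 6.5% and 7.49%. The counts for gene lists below are to be read against these percentages. The median SE of a difference was 0.114.

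**Figure D1:**
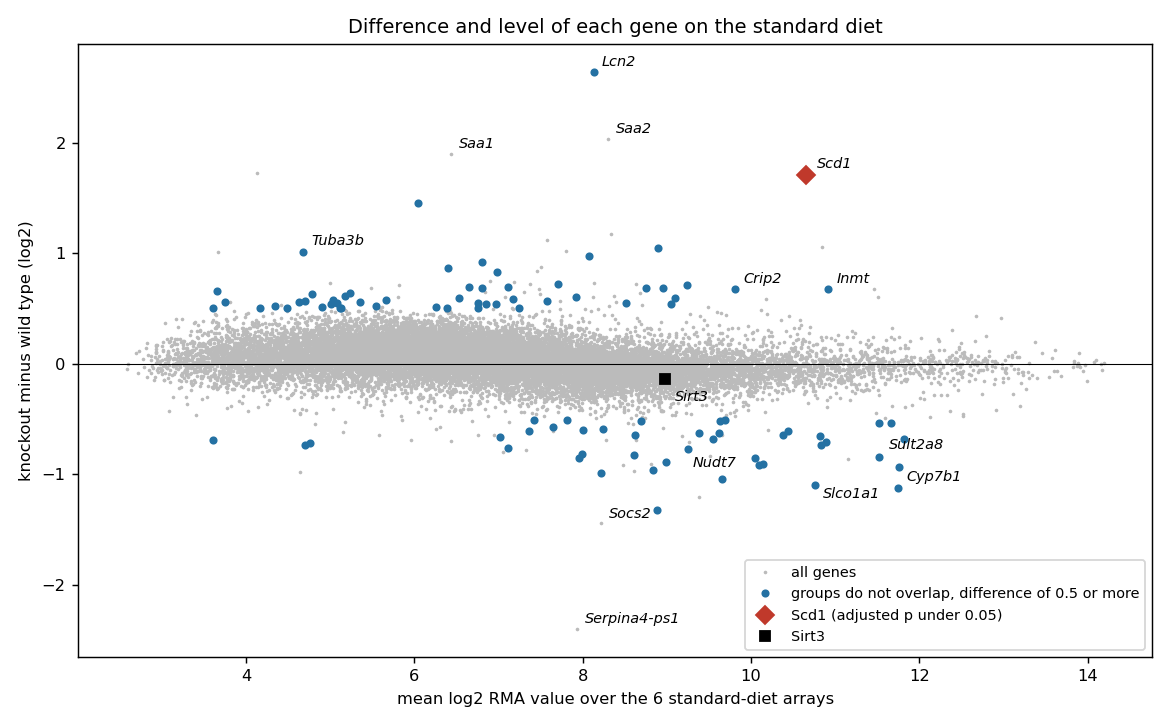
Difference between knockout and wild type (log2, vertical axis) against the mean log2 value over the 6 standard-diet arrays (horizontal axis) for each of 19938 genes. Blue points, with Scd1 in red, mark the 52 higher and 42 lower genes whose groups do not overlap and differ by 0.5 or more; Scd1, at 1.71, is the gene that passed the test, and Sirt3 lies close to 0.

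Some arrays stood apart from the others. The number of genes more than 1 log2 unit from the mean of the other 5 arrays was 84 for knockout replicate 1 and 39 for knockout replicate 2, against 12 for knockout replicate 3 and 6, 29 and 9 for wild-type replicates 1 to 3. Knockout replicate 1 carried high acute-phase and female-biased transcripts and low male-biased transcripts, knockout replicate 2 carried skeletal muscle transcripts, and wild-type replicate 2 carried high transcripts of growth hormone feedback genes. Differences are therefore given below also without knockout replicate 1 or 2. The 14 hepatocyte markers were bright on every array, with list means of 13.35 to 13.48, against all-gene means of 6.87 to 6.94. Albumin transcript (Alb) lay between 14.05 and 14.14 on all 6 arrays.

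The targeted gene, Sirt3, gave 8.97, 9.04 and 9.13 on the wild-type arrays and 8.83, 8.94 and 8.95 on the knockout arrays. The groups did not overlap, but the difference of -0.14 (SE 0.108) did not pass the test (limma adjusted p = 0.66). It was -0.10 without knockout replicate 1 and -0.16 without replicate 2. A signal near 9 is well within the range of expressed genes, and since the files do not place the probes of this set (10568997) relative to the targeted part, it cannot check the genotype labels. The other 6 sirtuins lay between -0.14 and 0.12, and none had a p under 0.05. Sirt4, a second mitochondrial member of the family, had non-overlapping groups at a difference of 0.12, with 7.92, 7.99 and 8.05 in the wild type and 8.18, 8.11 and 8.05 in the knockout.

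Sirt3 lies on the minus strand at chr7:140863663-140882309 (RefSeq, GRCm38.p6), head to head with Psmd13, a proteasome subunit gene at chr7:140882394-140898642. The window from 250 bases before to 50 bases after the Sirt3 start, chr7:140882260-140882559, is shown because a targeted allele at Sirt3 and its neighbour share it. The capitals mark the 84 bases between the starts of the 2 genes.
Sirt3: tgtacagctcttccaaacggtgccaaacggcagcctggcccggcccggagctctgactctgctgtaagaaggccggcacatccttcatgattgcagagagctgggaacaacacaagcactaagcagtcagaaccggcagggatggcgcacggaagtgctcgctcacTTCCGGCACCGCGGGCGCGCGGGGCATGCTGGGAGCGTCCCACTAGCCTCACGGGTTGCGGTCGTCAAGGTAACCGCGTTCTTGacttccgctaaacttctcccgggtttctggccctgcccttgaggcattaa
Psmd13 gave 9.08, 9.07 and 9.15 in the wild type and 8.81, 8.92 and 9.17 in the knockout, a difference of -0.13 (SE 0.0984) with overlapping groups. Among 26 measured genes beside Sirt3 on chromosome 7, 5 were higher at a p under 0.05 (19.2%) and none lower. At that p, 7.12% of all genes were higher, and 4.07% of genes above the median level, where 21 of the 26 lay. Groups did not overlap for 5 higher and 2 lower members (19.2% and 7.69%, against 9.88% and 4.52% of all genes). The median was 0.06 against 0.04 over all genes. Without knockout replicate 1, and also without replicate 2, 3 were higher, against 4.93% and 3.53% of all genes. The 5 higher with all arrays were Ifitm2 and Ifitm5, of the interferon-induced transmembrane family, the dopamine receptor gene Drd4, Tmem80 and Sigirr. For Ifitm2 the values were 9.91, 10.01 and 9.97 in the wild type against 10.89, 10.20 and 10.14 in the knockout, where replicate 1 stood highest. Its difference of 0.45 became 0.21 without that array.

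Scd1 catalyses the introduction of the first double bond into palmitate and stearate, and its transcript is normally low in the fasted state. It gave 10.10, 9.13 and 10.18 in the wild type and 11.74, 11.49 and 11.31 in the knockout (probe set 10467979; gene at chr19:44394450-44407709). Every knockout array lay above every wild-type array by more than 1 log2 unit, and wild-type replicate 2 was the lowest. The means were 9.80 (SD 0.584, n = 3) and 11.51 (SD 0.214, n = 3), a difference of 1.71 (SE 0.217, limma adjusted p = 0.0261), or 3.27-fold. The size of the difference did not rest on any single array: it was 1.60 without knockout replicate 1, 1.72 without replicate 2, 1.81 without replicate 3, 1.51 with replicate 3 alone, and 1.37 without wild-type replicate 2. The call did. The adjusted p was 0.177 without knockout replicate 1 and 0.16 without replicate 2, and it passed without replicate 3 (0.0231). Leaving out either replicate left no gene called by limma, with 982 higher (4.93%) and 284 lower (1.42%) genes at an unadjusted p under 0.05 without replicate 1 and 703 (3.53%) and 277 (1.39%) without replicate 2. Leaving out replicate 3 gave 6 calls, adding Eif2s3y, Fabp2, Gm24463, Lnpk and Sult2a8. Leaving out a high-fat array, which enters through the spread alone, ended the call for wild-type replicates 1 (0.0664), 2 (0.0531) and 3 (0.0658) and knockout replicates 1 (0.0585) and 2 (0.0531).

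**Figure D2:**
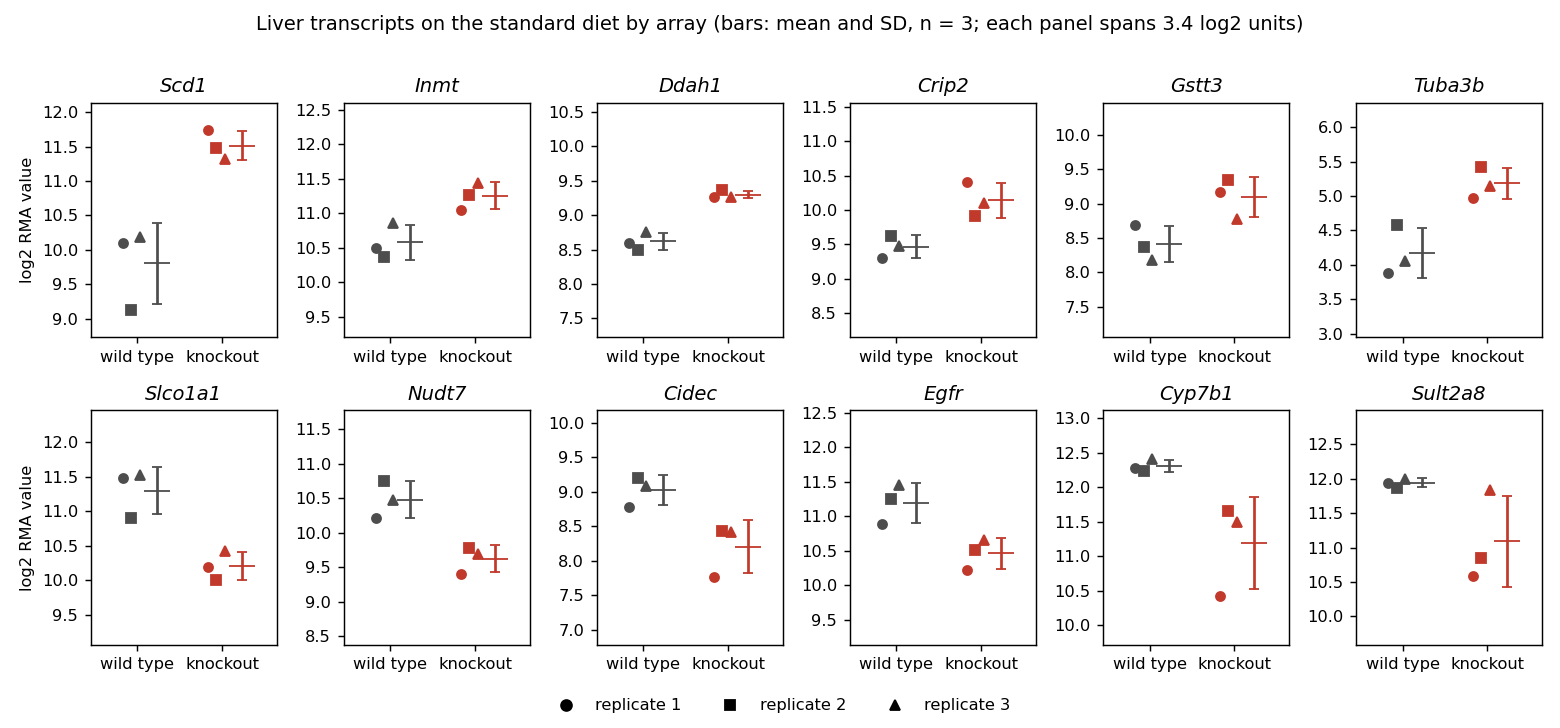
Log2 value on each standard-diet array (vertical axis; every panel spans the same number of log2 units) for 6 genes higher and 6 genes lower in the knockout, with the group mean and SD (n = 3) beside the points. In each panel the 3 knockout arrays lie wholly above or wholly below the 3 wild-type arrays; Cyp7b1 is lowest on knockout replicate 1 and Sult2a8 on knockout replicate 3 comes close to the wild type.

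The gene's relatives and the rest of the lipogenic programme did not share this size of difference. Scd2, Scd3 and Scd4 differed by 0.05, 0.19 and 0.35, all with a p above 0.05. Among 15 desaturases and elongases, Scd1 was the 1 member higher at a p under 0.05, while Elovl2 and Elovl5, elongases of polyunsaturated fatty acids, were lower. Elovl5 gave 12.94, 13.00 and 13.00 against 12.77, 12.74 and 12.89, a narrow and complete separation (difference -0.18, SE 0.0778). Elovl2 gave 12.35, 12.43 and 12.43 against 12.13, 11.90 and 12.33 (-0.28, SE 0.108).

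Of 24 genes of fatty acid and triglyceride synthesis, 3 were higher at a p under 0.05 and none lower, with a median of 0.00. Without knockout replicate 1 none was higher and 1 lower. Fasn, the fatty acid synthase, gave 8.75, 8.42 and 8.73 in the wild type and 9.02, 8.65 and 9.08 in the knockout, so the groups overlapped (0.28, SE 0.124). Mid1ip1, which activates acetyl-CoA carboxylase, gave 7.31, 7.30 and 7.37 against 7.77, 7.47 and 7.61, without overlap (0.29); a second probe set for it gave 0.11. The regulators Srebf1 (0.27) and Mlxipl (-0.11) and the carboxylase Acaca (-0.01) did not reach a p of 0.05. Thrsp, a lipogenic gene of the same family as Mid1ip1, had non-overlapping groups, but its difference of 0.51 (SE 0.575) rested mainly on replicate 3 (7.24, 7.22 and 8.02 against 6.93 to 7.02) and became 0.24 without it. Of 20 cholesterol synthesis genes none had a p under 0.05, and the mean of the list over its genes differed between wild-type replicates 1 (0.24) and 2 (-0.24) by more than between the groups.

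On the side of fat storage and uptake, Cidec stood out. It codes for a protein that enlarges lipid droplets, and it gave 8.78, 9.21 and 9.08 in the wild type and 7.76, 8.43 and 8.41 in the knockout. The groups did not overlap, and the difference of -0.82 (SE 0.187, limma adjusted p = 0.485) was -0.60 without knockout replicate 1 and -0.94 without replicate 2. Of 19 lipid droplet and lipolysis genes, Cidec was the 1 lower at a p under 0.05 (5.26%), none was higher, and the median was -0.01. Groups did not overlap for 2 members, both lower (10.5%, against 7.49% of genes above the median level). Without replicate 1, 1 was higher and 1 lower at that p, and without replicate 2, 1 and 2. Plin2 differed by 0.01 and Plin5 by 0.16. Fabp2, a fatty acid binding protein, gave 9.44, 9.75 and 9.66 against 8.59, 8.61 and 9.52. Replicate 3 of the knockout lay in the wild-type range, and the difference of -0.71 (SE 0.202) was one of those called without that array. Vldlr, a lipoprotein receptor, gave 7.30, 7.17 and 7.16 against 8.01, 7.38 and 7.54 (0.44, and 0.25 without replicate 1).

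Differences were small in size among the mitochondrial genes, where the enzyme itself acts. Among 22 measured transcripts of known SIRT3 substrates none had a p under 0.05, the median was -0.02 (0.02 after quantile normalization and -0.10 after median centring), and the differences ran from -0.15 to 0.10. Acadl, the long-chain acyl-CoA dehydrogenase, gave 11.19, 11.20 and 11.29 in the wild type and 11.18, 11.14 and 11.30 in the knockout. Sod2, the matrix superoxide dismutase, gave 11.29, 11.21 and 11.27 against 11.12, 11.26 and 11.25. Both overlapped almost completely, with differences of -0.02 (SE 0.0938) and -0.05 (SE 0.0814). For Idh2, which makes matrix NADPH, the difference was 0.05 (SE 0.132), and for the complex I subunit Ndufa9 it was -0.09 (SE 0.085).

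The median was -0.02 over 23 genes of mitochondrial beta-oxidation, with 1 higher at a p under 0.05 and none lower. That gene was Crat, carnitine acetyltransferase, at 10.82, 10.94 and 10.91 against 11.15, 11.10 and 11.06 (0.21, SE 0.0817), a small difference with no overlap. Of 35 complex I genes, none was higher and 2 were lower, Ndufa6 (-0.28) and Ndufa12 (-0.21), and in both the knockout overlapped the wild type. Over the 38 genes of complexes II to V, the 1 lower gene was Cycs, cytochrome c, at 11.33, 11.11 and 11.20 against 10.72, 10.81 and 11.19. Of its other probe sets, one gave -0.31 like the first and a dim one gave 0.35. The tricarboxylic acid cycle held Idh3a (-0.28) and the mitochondrial proteases held Yme1l1 (-0.32) as their lower members, and neither separated the groups. The list means of complex I and of complexes II to V on knockout replicate 1 were -0.16 and -0.15 relative to the wild-type mean, and between -0.04 and 0.01 on the other knockout arrays. In these 2 lists, 4 (11.4%) and 5 (13.2%) genes were lower without overlap and none higher. Of genes above the median level, 7.49% were lower in this way. Without replicate 2, 11 in each list were lower without overlap, against 1534 of all 19938 genes. Without replicate 1, 4 and 5 were lower and 2 and 3 higher. Of 7 genes of ketone body metabolism none had a p under 0.05.

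Of 29 peroxisomal genes, 1 was higher and 2 were lower at a p under 0.05, with a median of -0.05. The higher one was Abcd2, a transporter of very long-chain fatty acids, whose difference of 1.12 rested on knockout replicate 1 (9.98 against 6.75 to 7.27 on the other arrays) and was 0.20 without it. Nudt7, a peroxisomal hydrolase of coenzyme A and its esters, gave 10.21, 10.76 and 10.47 in the wild type and 9.40, 9.78 and 9.69 in the knockout. Its difference of -0.86 (SE 0.183, limma adjusted p = 0.485) was -0.74 without replicate 1 and -0.93 without replicate 2. Scp2, which holds the thiolase of branched-chain oxidation and sterol carrier activity, gave 13.10, 13.09 and 13.16 against 12.30, 12.86 and 12.93. It separated the groups, but its difference of -0.42 was -0.22 without replicate 1. In amino acid catabolism, Uroc1 and Hal, both of histidine breakdown, and Cbs, of homocysteine disposal, were higher at a p under 0.05, 3 of 31 members against none lower, and 1 without knockout replicate 1. Uroc1 was the most even of them, at 10.09, 10.08 and 10.30 against 10.54, 10.63 and 10.49 (0.40, SE 0.0944). Hal and Cbs differed by 0.32 and 0.24. The lipoprotein receptor Lrp1 gave 10.77, 10.84 and 11.09 against 11.19, 11.13 and 11.16, again with no overlap (0.26, SE 0.0874).

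Beyond Scd1, 51 higher and 42 lower genes had groups that did not overlap and a difference of 0.5 or more, 0.261% (with Scd1) and 0.211% of all genes. Of these, 19 higher and 21 lower genes also differed by 0.5 or more both without knockout replicate 1 and without replicate 2 (0.0953% and 0.105%). The 24 genes named from them by smallest p had differences of 0.51 to 1.71 and of -0.51 to -1.12. Of the 12 higher genes, 9 kept a difference of 0.5 or more without knockout replicate 1, and 9 without replicate 2. Of the 12 lower genes, 10 did so without replicate 1 and 10 without replicate 2. Apart from Scd1, none of the 24 passed the test (limma adjusted p of 0.329 to 0.502). They were chosen for their difference in these arrays, so what follows on them is description.

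Of the higher genes, 3 code for enzymes that modify or break down small molecules. Inmt, an N-methyltransferase of indoles, gave 10.50, 10.37 and 10.87 in the wild type and 11.05, 11.27 and 11.44 in the knockout (0.67, or 1.6-fold, SE 0.131). Ddah1, which breaks down asymmetric dimethylarginine, an inhibitor of nitric oxide synthases, gave 8.60, 8.50 and 8.75 against 9.26, 9.36 and 9.27 (0.68, SE 0.188). Gstt3, a glutathione transferase, gave 8.68, 8.38 and 8.18 against 9.17, 9.35 and 8.78 (0.69). In all these the knockout arrays lay above the wild type, and Ddah1 was the tightest, with an SD of 0.0546 over the knockout arrays.

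Crip2, a LIM domain protein, gave 9.30, 9.63 and 9.48 against 10.41, 9.91 and 10.11 (0.67). Tuba3b, an alpha-tubulin, gave 3.88, 4.58 and 4.05 against 4.97, 5.43 and 5.15 (1.01, SE 0.208), a 2-fold difference at a level close to the bottom of the array's range. Of 15 tubulins, 3 were higher and 1 lower at a p under 0.05, with Tubb2a at 0.42 and Tubb4a at -0.23. The other higher genes named were dim as well, with wild-type means under 6.3: Nsg2, Il1bos, Gask1a, Cela3a, Kbtbd6 and Ripk3 differed by 0.51 to 0.59. Cela3a is a pancreatic elastase, and the 18 pancreas markers had a median of 0.16. By the rule on arrays left out, Gadd45b, a stress-induced regulator of growth arrest, gave 9.45, 8.13 and 9.06 against 9.64, 9.46 and 9.67, a difference of 0.71 that was 0.34 without the low wild-type replicate 2. Bhlhe40, a repressor in the circadian clock, gave 7.22, 7.06 and 7.76 against 7.82, 7.90 and 8.49 (0.72), and Trap1a, at a low level, differed by 0.52.

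Among the lower genes, Egfr, the epidermal growth factor receptor, gave 10.89, 11.24 and 11.46 in the wild type and 10.22, 10.51 and 10.66 in the knockout (-0.73, SE 0.203; -0.61 without replicate 1). Tuft1 gave 7.91, 8.81 and 8.47 against 7.46, 7.58 and 7.71 (-0.82). Both separated the groups on each array. Zdhhc13, a protein palmitoyltransferase, gave 7.66, 7.79 and 7.55 against 7.00, 6.94 and 7.25 (-0.61, SE 0.114), the smallest p among the lower genes. Cmah, which makes N-glycolylneuraminic acid, differed by -0.63, and Nop58 and Nip7, both factors of ribosome assembly, by -0.59 and -0.51. By the rule on arrays left out, the homeobox gene Hhex gave 9.14, 9.97 and 9.20 against 8.79, 8.33 and 8.52 (-0.89), Phlda1 gave 9.11, 10.04 and 8.81 against 8.56, 7.92 and 8.58 (-0.96), and the dim Prpmp5 differed by -0.69. Wild-type replicate 2 was the highest array for Hhex, Phlda1 and Prpmp5, and without it their differences were -0.62, -0.61 and -0.41.

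**Figure D3:**
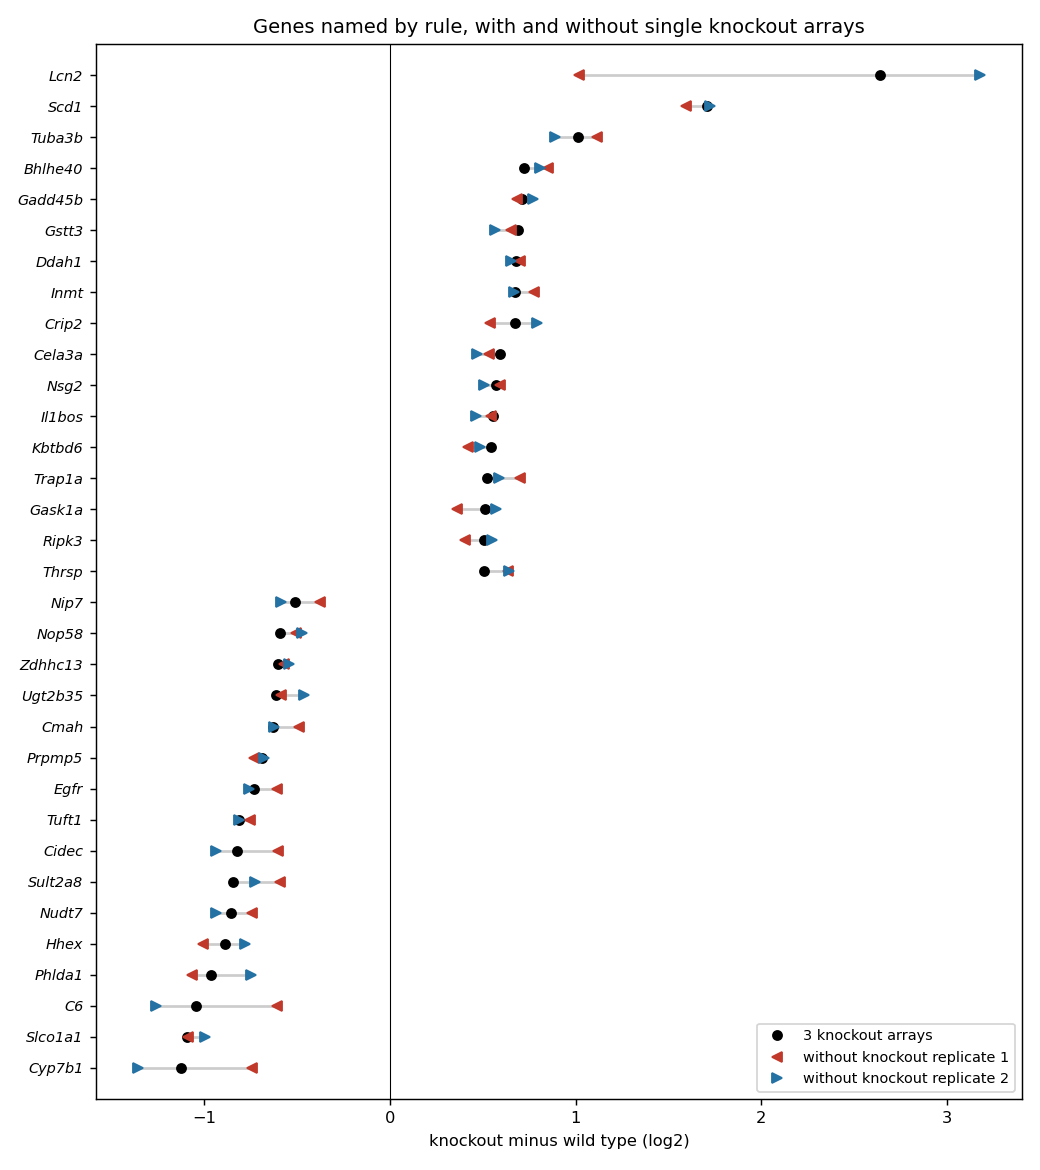
Knockout minus wild type (log2, horizontal axis) for the genes named by smallest p or by the difference that remains without single arrays, with 3 knockout arrays (black), without knockout replicate 1 (red) and without knockout replicate 2 (blue). Lcn2 moves from 2.64 to 1.02 without replicate 1, whereas Scd1 stays between 1.60 and 1.72 and Slco1a1 between -1.10 and -0.996.

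Of the 24 genes named by smallest p, the largest lower differences belonged to a transporter and an enzyme of bile acids. Slco1a1, an organic anion transporter of the hepatocyte membrane that is more abundant in male liver, gave 11.48, 10.90 and 11.52 in the wild type and 10.19, 10.01 and 10.42 in the knockout. The difference of -1.10 (SE 0.237, limma adjusted p = 0.485) corresponds to a 2.14-fold higher wild-type signal and changed little without replicate 1 (-1.09) or replicate 2 (-0.996). Cyp7b1, the hydroxylase of the alternative bile acid pathway, gave 12.28, 12.24 and 12.41 against 10.42, 11.65 and 11.49. Every knockout array was lower and replicate 1 the lowest by over 1 unit, so its difference of -1.12 (SE 0.313) was -0.74 without that array. Cyp8b1, which sets the share of cholic acid, gave 12.92, 12.90 and 12.81 against 12.46, 12.73 and 12.63 (-0.27).

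Of 19 bile acid synthesis genes, 1 was higher and 4 lower at a p under 0.05 (5.26% and 21.1%, against 4.07% and 4.36% of genes above the median level), with a median of 0.02 that was -0.06 after median centring. Without knockout replicate 1, none was higher and 2 were lower. Of 24 transporters of bile acids and anions, 2 were higher and 4 lower (8.33% and 16.7%), and 6 and 2 had non-overlapping groups (25% and 8.33%). Such groups were found for 6.5% and 7.49% of genes above the median level. Without replicate 1, 1 transporter was higher and 1 lower at that p, and without replicate 2, 3 and 2. Abcb1a, a drug efflux pump, was higher at 6.68, 6.42 and 6.65 against 7.44, 7.13 and 6.80 (0.54, SE 0.164). Abcg2, another efflux pump, was lower at 9.93, 9.86 and 10.04 against 8.97, 9.60 and 9.85, with a difference of -0.47 that was -0.21 without replicate 1.

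Conjugation enzymes leaned in both directions. Of 39 members, 4 were higher and 8 lower at a p under 0.05 (10.3% and 20.5%), the median was -0.01, and 34 lay above the median level of all genes. The 8 lower members were 7 UDP-glucuronosyltransferases of family 2 and the sulfotransferase Sult2a8. The 4 higher ones were Inmt, the nicotinamide methyltransferase Nnmt (0.60) and the glutathione transferases Gstt3 and Gstt1. Gstt1 gave 9.99, 10.05 and 10.07 against 10.26, 10.31 and 10.27, a small and even difference (0.24, SE 0.088). Ugt2b35 gave 10.77, 10.79 and 10.67 against 10.09, 9.84 and 10.48 (-0.61), and Ugt2a3 gave 11.89, 11.70 and 11.94 against 11.18, 11.29 and 11.57 (-0.49). Ugt2b1 and Ugt2b5 differed by -0.54 and -0.53. In each of these 4 the groups did not overlap, and replicate 3 was the knockout array nearest to the wild type. Sult2a8 gave 11.94, 11.87 and 12.00 against 10.58, 10.84 and 11.84, so that a difference of -0.85 with all arrays was -1.22 without replicate 3 and -0.10 with replicate 3 alone. Probes of such near-identical relatives can cross-hybridise, so the members of these families are not independent of each other.

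Of 36 cytochrome P450 genes of families 2 and 3, 4 were higher and 3 lower at a p under 0.05, and without knockout replicate 1, 1 and 3. Cyp2c67 gave 11.08, 11.29 and 11.36 against 10.38, 10.20 and 11.02 (-0.71), and Cyp2c68 differed by -0.68. Cyp2c23 was higher at 11.44, 11.54 and 11.65 against 11.86, 11.80 and 11.68 (0.24).

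Male-biased and female-biased liver genes lay on opposite sides. These genes follow the sex-specific pattern of growth hormone secretion. Of 25 male-biased genes none was higher and 9 were lower at a p under 0.05 (36%), with a median of -0.44. Of 31 female-biased genes 6 were higher and none lower (19.4%), with a median of 0.19. The male-biased list shares Slco1a1, Cyp7b1 and Ugt2b1 with the lists above, and its Cyp4a12 and Mup members are near-identical copies. Much of the pattern lay on knockout replicate 1. The mean of the male-biased list was -0.98 on that array relative to the wild-type mean, and -0.17 and -0.25 on replicates 2 and 3. For the female-biased list the means were 0.80, -0.04 and 0.11. Without replicate 1 the medians were -0.13 and 0.01, with 5 male-biased genes lower and 1 female-biased gene higher at a p under 0.05, while 1.42% and 4.93% of all genes were so in that fit. In that smaller set of arrays, 11 male-biased genes were lower without overlap (7.29% of all genes) and 4 female-biased genes higher (14.5%). Without replicate 2, 16 male-biased genes were lower and 11 female-biased genes higher at a p under 0.05.

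Cyp4a12a, a male-specific fatty acid hydroxylase, shows the pattern on replicate 1, with 12.13, 12.18 and 12.15 in the wild type and 10.35, 12.11 and 11.96 in the knockout (-0.68, and -0.12 without replicate 1). Mup21, a major urinary protein, gave 10.54, 10.51 and 10.74 against 8.27, 10.31 and 10.49 (-0.91, and -0.20). C6, a complement component, gave 9.89, 10.25 and 10.37 against 8.26, 9.56 and 9.56, lower on every knockout array (-1.04, and -0.61). The female-specific sulfotransferase Sult3a1 lay at 8.64 on knockout replicate 1 and between 3.03 and 3.41 on the other 5 arrays, a gap of 5.42 to their mean. Slc22a26 lay 3.89 above the mean of the others there.

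Y-linked and X-inactivation transcripts were also read, since the labels give no sex. Xist, made from the inactive X chromosome, lay between 4.42 and 4.61 on all 6 arrays. The Y-linked Eif2s3y gave 9.02, 8.88 and 9.05 in the wild type and 7.55, 8.19 and 9.14 in the knockout, and Uty gave 7.86, 7.90 and 8.11 against 6.51, 7.43 and 8.09. In both, replicates 1 and 2 of the knockout were below all other arrays, and replicate 3 was level with the wild type. Kdm5d was low on replicate 1 (6.17 against 6.87 to 7.13 elsewhere). The part of these arrays' Y-linked signal in the differences of sex-biased genes was not tested.

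Genes that report growth hormone action varied within the wild type. Socs2, a feedback inhibitor of the receptor, gave 8.12, 10.43 and 8.25 in the wild type and 8.84, 6.36 and 7.27 in the knockout, so wild-type replicate 2 and knockout replicate 2 were the extremes. Cish, a related inhibitor, gave 7.10, 8.79 and 7.26 against 7.21, 6.70 and 6.90, and Keg1, a male-biased acyltransferase gene, gave 8.61, 10.11 and 9.51 against 8.63, 8.33 and 8.61. All 3 were highest on wild-type replicate 2. Of 15 genes of growth hormone signalling, 1 had a p under 0.05, Socs2, lower (-1.44, SE 0.603). Without wild-type replicate 2 that difference was -0.70, and a second probe set gave -0.29. Cish went from -0.78 to -0.25 and Keg1 from -0.89 to -0.54 without that array. Without knockout replicate 2 no gene of the list had a p under 0.05, and without replicate 1 there were 2, both lower. The receptor gene Ghr and the growth factor gene Igf1 differed by 0.00 and -0.17. Cish and Keg1 are shown because both hold, within their promoter windows, the spacing TTCNNNGAA that STAT5, the factor activated by the receptor, is known to bind. The capitals mark it. It reads the same on both strands and occurs in 8.3% of all 32851 windows of this length, in 5 of 14 genes of growth hormone signalling and in 3 of 18 male-biased genes with a window. The first share counts windows, whereas the list counts are of genes with a match in any of their windows, so they are unlike measures. The windows are chr9:107296409-107296708 for Cish and chr19:12695540-12695839 for Keg1, both on the plus strand (RefSeq, GRCm38.p6).
Cish: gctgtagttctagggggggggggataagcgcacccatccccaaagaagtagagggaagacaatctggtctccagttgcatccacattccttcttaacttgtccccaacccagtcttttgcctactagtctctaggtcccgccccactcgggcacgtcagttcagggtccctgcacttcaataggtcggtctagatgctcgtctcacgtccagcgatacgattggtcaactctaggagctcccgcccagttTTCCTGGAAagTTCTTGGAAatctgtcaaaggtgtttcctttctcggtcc
Keg1: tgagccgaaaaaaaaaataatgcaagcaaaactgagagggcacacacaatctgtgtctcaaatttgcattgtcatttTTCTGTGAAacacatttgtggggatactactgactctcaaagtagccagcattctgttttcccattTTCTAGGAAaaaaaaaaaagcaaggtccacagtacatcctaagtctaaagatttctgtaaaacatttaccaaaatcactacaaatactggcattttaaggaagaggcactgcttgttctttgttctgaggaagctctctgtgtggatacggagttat
A match in these letters is a description of the sequence and not evidence of binding.

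**Figure D4:**
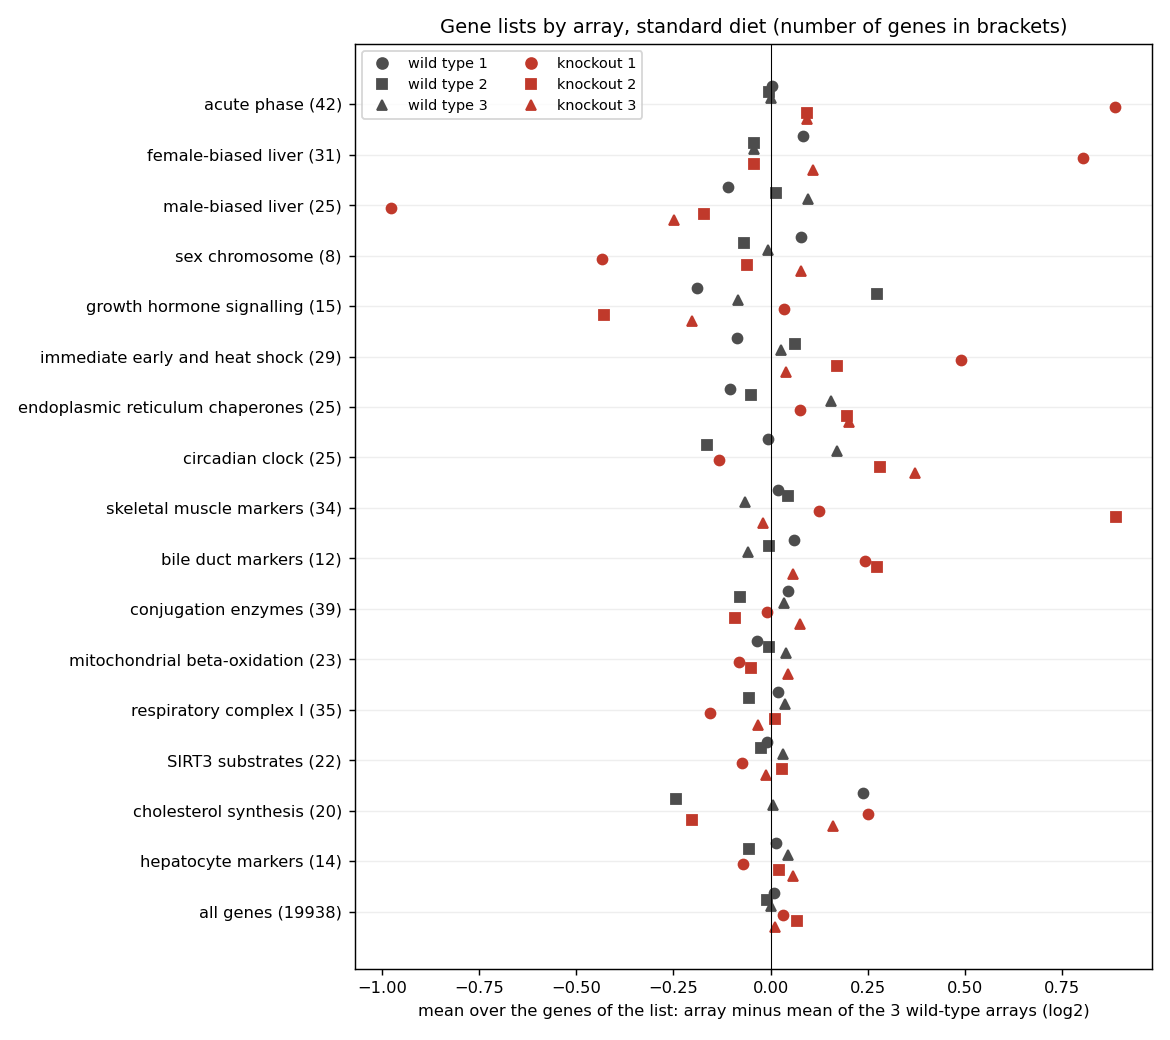
Mean over the genes of each list of the array's value minus the mean of the 3 wild-type arrays (log2, horizontal axis), for the wild-type (grey) and knockout (red) arrays, with the number of genes in brackets. Knockout replicate 1 stands at 0.89 for acute-phase genes, 0.80 for female-biased and -0.98 for male-biased genes, and knockout replicate 2 at 0.89 for skeletal muscle markers; the 3 lists of mitochondrial genes lie between -0.16 and 0.04 on all arrays.

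The acute-phase genes, which hepatocytes make in response to inflammatory cytokines, were highest on knockout replicate 1. Relative to the wild-type mean, their list mean was 0.89 on that array and 0.09 on each of replicates 2 and 3. On the wild-type arrays it was -0.005 to 0.003. Saa1 and Saa2, the serum amyloid A genes, lay 6.42 and 6.04 above the mean of the other 5 arrays on knockout replicate 1. Saa2 gave 7.51, 7.13 and 7.20 in the wild type and 13.33, 7.15 and 7.47 in the knockout. Orm2, an orosomucoid, lay 3.54 above. Of 42 acute-phase genes 9 were higher at a p under 0.05 and none lower (21.4%), with a median of 0.21. Without replicate 1 none was higher and 1 lower at that p, and the median was 0.04. Without replicate 2, 17 were higher and 1 lower. In the fit without replicate 1, 9 members were higher without overlap and 3 lower, against 14.5% and 7.29% of all genes.

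With all arrays, groups did not overlap for 7 members (16.7%), all higher: Lcn2, Hp, Tnf, Saa3, Lbp, Orm3 and Socs3. Such higher groups were found for 6.5% of genes above the median level. Saa1 and Saa2, named above, are near-identical copies whose probes may not tell them apart. Lcn2, lipocalin 2, which binds bacterial siderophores, gave 6.71, 7.09 and 6.63 in the wild type and 12.70, 8.37 and 7.28 in the knockout. Its difference of 2.64 (SE 0.966, limma adjusted p = 0.502) was 1.02 without replicate 1. Hp, haptoglobin, gave 12.73, 12.80 and 12.77 against 13.64, 12.96 and 12.95 (0.42, and 0.19 without replicate 1). Immediate early and heat shock genes behaved alike on that array: 5 of 29 were higher at a p under 0.05 and none lower, with a list mean of 0.49 on replicate 1, 0.17 on replicate 2 and 0.04 on replicate 3. Without replicate 1, 3 were higher and 1 lower, and without replicate 2, 9 were higher. Fos gave 6.33, 6.31 and 6.27 against 7.77, 6.74 and 6.47, and Btg2, an antiproliferative early gene, gave 6.61, 6.58 and 6.49 against 8.49, 6.97 and 6.73. Both were above the wild type on every knockout array, in the same order. Junb (0.35) and Hspa1a (0.28) also separated the groups.

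On knockout replicate 2, transcripts of skeletal muscle were high. Acta1, skeletal actin, gave 7.04, 7.14 and 7.04 in the wild type and 7.10, 9.80 and 6.94 in the knockout. Atp2a1, the calcium pump of fast muscle, gave 6.45, 6.40 and 6.19 against 6.68, 8.61 and 6.49, and Mb, myoglobin, gave 6.77, 6.88 and 6.64 against 7.15, 8.31 and 6.93. The 34 muscle markers had a list mean of 0.89 on this array, 0.12 on replicate 1 and -0.02 on replicate 3. Of them 7 were higher at a p under 0.05 with all arrays, against 2 without replicate 2, where the median went from 0.29 to 0.05. Without replicate 1 there were 16. In whole tissue, more cells of a type and more RNA per cell cannot be told apart. The source of the muscle transcripts on replicate 2 was not tested.

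Among markers of other cell types, those of bile duct, lymphocytes, neutrophils and pancreas were mostly dim, while 14 of the 20 macrophage and Kupffer cell markers lay above the median level. Medians were 0.20 for 12 bile duct markers, 0.15 for 22 lymphocyte and natural killer cell markers, 0.12 for 14 neutrophil markers, 0.10 for 20 macrophage and Kupffer cell markers and 0.16 for pancreas markers. The median over genes below the median level was 0.09, and over those above it -0.01. After quantile normalization the same lists had medians of 0.11, 0.06, 0.03, 0.09 and 0.07. Of the bile duct markers, Cldn7, Epcam and Cldn4 were higher at a p under 0.05. Stellate cell and endothelial markers, which are brighter, had medians of 0.03 and -0.03.

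Of 25 chaperones and degradation factors of the endoplasmic reticulum, all above the median level, 4 were higher at a p under 0.05 and none lower (16%), 4 had non-overlapping groups (16%), and the median was 0.14, 0.11 without replicate 1 and 0.06 after median centring. Without replicate 1, 6 were higher and 1 lower at that p, and without replicate 2, 2 and none. The list means overlapped between the groups, at -0.10, -0.05 and 0.15 on the wild-type arrays and 0.08, 0.20 and 0.20 on the knockout arrays. Sdf2l1, a component of the chaperone complex of the lumen, gave 8.10, 8.15 and 8.46 in the wild type and 8.73, 9.02 and 8.61 in the knockout (0.55, SE 0.16). Edem1, which directs misfolded glycoproteins to degradation, gave 9.57, 9.66 and 9.84 against 10.04, 9.95 and 10.04 (0.32, SE 0.0944), and Sel1l, of the same pathway, gave 10.22, 10.31 and 10.50 against 10.58, 10.76 and 10.65 (0.32). These 3 separated the groups on every array. Syvn1, the ubiquitin ligase that pairs with Sel1l, gave 8.84, 9.05 and 9.25 against 9.08, 9.66 and 9.52 (0.38), with overlap. Creld2 gave 8.86, 9.28 and 9.57 against 9.11, 10.09 and 10.05, where replicate 1 overlapped the wild type (0.51, and 0.83 without it). Hspa5, the main chaperone of the lumen, differed by 0.13 (SE 0.136).

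Promoter windows of 3 members are given because the pathway has a known element, CCAAT followed by 9 bases of any kind and CCACG, through which ATF6 and XBP1 act. It was searched on both strands and found in 0.119% of all windows and in 9 of the 21 members with a window, Hspa5, Creld2 and Syvn1 among them. Here too the share counts windows and the list count is of genes. Sdf2l1 and Edem1 held no match in these letters within their windows. The capitals mark the element in Creld2 (chr15:88819396-88819695, plus strand), where it lies on the opposite strand, and in Syvn1 (chr19:6046326-6046625, plus strand). Sdf2l1 (chr16:17132334-17132633, minus strand) is shown for comparison (RefSeq, GRCm38.p6).
Creld2: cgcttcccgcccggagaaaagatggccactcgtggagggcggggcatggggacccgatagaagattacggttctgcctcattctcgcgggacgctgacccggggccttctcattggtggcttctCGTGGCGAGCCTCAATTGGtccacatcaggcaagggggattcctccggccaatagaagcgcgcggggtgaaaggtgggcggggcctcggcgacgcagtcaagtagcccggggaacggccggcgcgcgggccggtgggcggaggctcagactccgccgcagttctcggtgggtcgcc
Syvn1: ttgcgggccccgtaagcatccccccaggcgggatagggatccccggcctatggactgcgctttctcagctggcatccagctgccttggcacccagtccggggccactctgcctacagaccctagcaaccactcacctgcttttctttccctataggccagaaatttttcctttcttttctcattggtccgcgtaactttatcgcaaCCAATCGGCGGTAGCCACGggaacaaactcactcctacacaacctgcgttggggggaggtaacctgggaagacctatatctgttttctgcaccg
Sdf2l1: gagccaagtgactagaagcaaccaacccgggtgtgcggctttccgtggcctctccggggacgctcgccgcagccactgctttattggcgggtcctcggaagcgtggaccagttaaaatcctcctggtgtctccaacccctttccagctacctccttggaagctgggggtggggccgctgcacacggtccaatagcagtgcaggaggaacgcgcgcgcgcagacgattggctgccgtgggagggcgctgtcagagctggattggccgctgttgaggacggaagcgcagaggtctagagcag
Syvn1, with the element, and Sdf2l1, with no match, both had a p under 0.05, and Hspa5, with the element, did not. These are 3 members only, and the search took exact matches within these windows. The part of the element in the differences was not tested.

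Circadian clock genes varied with the array as well. Of 25 members 3 were higher at a p under 0.05 and none lower, with list means of -0.13, 0.28 and 0.37 on the 3 knockout arrays and of -0.01, -0.16 and 0.17 on the wild-type arrays. Groups did not overlap for 5 members, all higher (20%). Without replicate 1, the array with the lowest mean among the knockouts, this held for 15 members, against 14.5% of all genes in that fit, and the median went from 0.18 to 0.23. The labels give no hour of sampling, and its part in these values was not tested. Of 29 interferon-response genes 2 were higher and 1 lower, and Ifit3 gave 5.55, 5.80 and 5.72 against 5.88, 5.96 and 5.96 (0.24).

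The same genotype comparison on the high-fat diet, with its own wild-type arrays, was set beside the standard diet for the 24 genes named by smallest p. They were chosen for their difference on the standard diet, so a smaller difference on the other diet is given as a description only. Of the 12 higher genes, 6 were also above 0 on the high-fat diet, and none reached 0.5; of the 12 lower genes, all were below 0, and 2 reached -0.5, Slco1a1 (-0.57) and Cyp7b1 (-0.84). For Scd1 the high-fat difference was 0.18 (SE 0.217), so that the difference between the diets was 1.52 (SE 0.307, limma adjusted p = 0.945). Over all genes none differed between the diets in its genotype effect at an adjusted p under 0.05 by limma. At an unadjusted p under 0.05, 813 were higher (4.08%) and 131 lower (0.657%). Most of these lay below the median level, at 577 higher and 68 lower, against 236 and 63 above it. Among the lists, the endoplasmic reticulum chaperones had a median of -0.16 on the high-fat diet against 0.14 on the standard diet, and 8 of the 25 differed between the diets at an unadjusted p under 0.05.

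**Figure D5:**
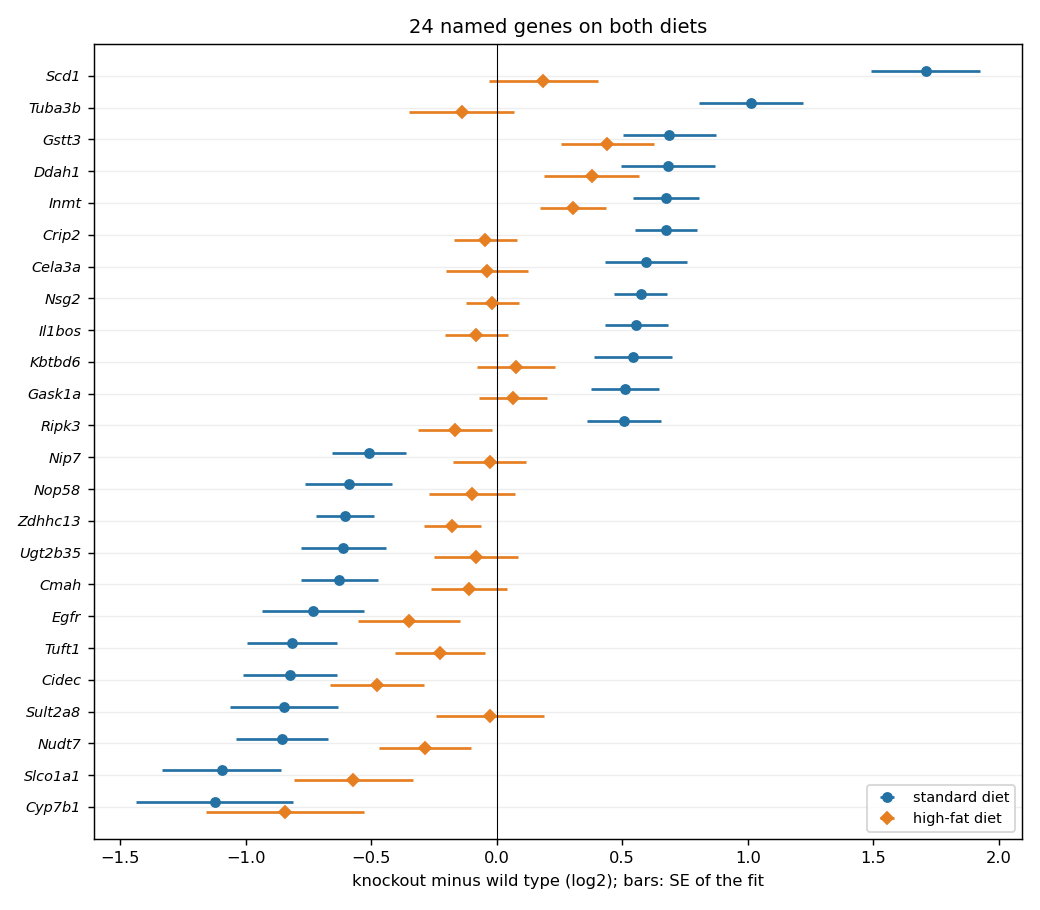
Knockout minus wild type (log2, horizontal axis; bars are the SE of the fit) on the standard diet (blue circles) and on the high-fat diet (orange diamonds) for the 24 genes named by smallest p on the standard diet. Scd1 stands at 1.71 and 0.18, while Cyp7b1 stands at -1.12 and -0.84.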

How the data were processed

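The series holds 12 Affymetrix arrays of mouse liver, of which the 6 from the standard diet are compared. Per the submitters' processing notes, the authors made the deposited log2 values with RMA in Affymetrix Expression Console; the version is not given in the sources used here. RMA corrects background, normalizes arrays and summarizes probes. The arrays of each diet appear to come from a run of their own, so levels are not compared between diets; no further normalization was applied. Array medians lay between 6.34 and 6.47, and the number of arrays limits the precision. Of 35557 probe sets, 21789 had 1 gene symbol, 1621 several and 12147 none listed; 335 lacked values on the standard-diet arrays. For 999 genes with more than 1 probe set the brightest was kept, giving 19938 genes.

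A model with 1 mean per group over 12 arrays was fitted with limma 3.58.1 in R 4.3.3 (moderated along an intensity trend, 8 residual degrees of freedom), with Benjamini-Hochberg adjustment over all genes and calls at an adjusted p under 0.05. Data simulated at this size recovered 52.2% of 67 genes changed by 0.5, 92.5% of 67 changed by 1 and 100% of 66 changed by 2. In the simulation the spread was independent between genes, and no array stood apart as knockout replicates 1 and 2 did. These shares therefore do not give the recovery on the real arrays. Genes were named as follows: Sirt3; genes called; in each direction, the 12 with the smallest p among those with non-overlapping groups and a difference of at least 0.5, and the 10 with the largest difference remaining without knockout replicate 1 and without replicate 2; list members with small p or a needed role; and genes farthest from the rest on knockout replicates 1 and 2. The naming skipped predicted, clone-named, chemosensory and small RNA genes, other than those counted as calls. The 51 gene lists and the named genes were chosen with earlier results of these data known; no set test was run. Replicate numbers did not pair the arrays. Promoter sequences are RefSeq windows on GRCm38.p6. The alternatives were other moderation settings, array weights, 6 arrays only, all probe sets, a filter on dim genes, other normalizations and thresholds, the replicate block and leaving out arrays.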

Additional observations from a re-analysis of the deposited data

How the results depend on the processing

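The count of 1 called gene, Scd1, held with no intensity trend, array weights, dim genes left out, quantile normalization, median centring, cyclic loess and an adjusted p under 0.1. It was 0 with only the 6 standard-diet arrays, robust moderation, all probe sets, an adjusted p under 0.01, and without knockout replicates 1 and 2 together; it was also 0 without knockout replicate 1 in the 6 arrays, an alternative chosen after seeing the data. Leaving out single arrays gave 0 to 6 calls, and 0 to 1 for the difference between diets. The difference of Scd1 itself stayed between 1.37 and 1.90 over single arrays left out. With the replicate number as a block 2 genes were called, Scd1 and Tuba3b (adjusted p of 0.0155 for both). The numbers share only a label: same-numbered deviations correlated at 0.0506, 0.0149 and 0.288, and 1 of the 3 knockout arrays, replicate 3, correlated best with its own number.

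Some differences changed sign. With knockout replicate 3 alone, Eif2s3y went from -0.69 to 0.15, Uty from -0.61 to 0.14, Yme1l1 from -0.32 to 0.0157, Ndufa6 from -0.28 to 0.0001, Psmd13 from -0.13 to 0.0741 and Acadl from -0.02 to 0.0696. Acadl was 0.0183 with quantile normalization and 0.0207 with cyclic loess, and -0.0643 to 0.012 over single arrays left out. Idh2 was -0.0256 with median centring and -0.025 to 0.1154 over single arrays left out, and Sod2 was -0.0726 to 0.0006. In the 6 standard-diet arrays without knockout replicate 1, Idh2 was -0.025 and Sod2 0.0006. The causes were not tested. The number of arrays limits the precision.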
